A study of Arabidopsis thaliana with 20 samples.

Results

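miRNA families known from plant nutrient starvation were followed through de-etiolation of *Arabidopsis* seedlings. The miR395 family belongs to sulfate homeostasis, and the miR399 and miR827 families belong to phosphate homeostasis. Members were all rows whose names begin with miR395, miR399 or miR827 in the table of expressed miRNAs. There were 9 such rows of 207 miRNA rows, namely 6 of miR395, 2 of miR399 and 1 of miR827, and they hold 4 distinct mature sequences. All members come from the same 18 sRNA libraries of wild-type Col-0, a standard laboratory accession. Seedlings were dark-grown for 4 d and then given white light (100 µE) for 1, 3, 6, 12 or 24 h (W1 h to W24 h). The reference was the 4-d-old dark-grown seedling at the start of the light treatment (W0 h). No seedlings kept in the dark were sampled at the later times, so light and age cannot be told apart. Each of the 6 time points had 3 replicates of aerial tissue, and the TruSeq kit served for replicates 1 and 2 and another kit, Small RNA v1.5, for replicate 3. mRNA cleavage was sampled by 1 degradome library from light-treated seedlings, pooled in equal parts from all 5 light time points, and 1 from dark-grown seedlings.

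In plants a miRNA guides ARGONAUTE1 to a nearly complementary site in an mRNA, which is then cut or less translated. When phosphate runs short, the transcription factor PHR1 raises miR399, and miR399 represses *PHO2* (AT2G33770), a ubiquitin-conjugating enzyme that removes phosphate transporters. miR827 represses *NLA* (AT1G02860), a ubiquitin ligase that acts on phosphate transporters with PHO2. When sulfate runs short, the transcription factor SLIM1 is needed for the rise of miR395. miR395 represses the ATP sulfurylases *APS1* (AT3G22890) and *APS4* (AT5G43780), which carry out the first step of sulfate assimilation, and *SULTR2;1* (AT5G10180), a low-affinity sulfate transporter of the vasculature.

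The sequences below are those the rows stand for, and they show why several rows cannot be told apart. Each is written 5′ to 3′ with the seed (bases 2 to 8) in capitals.
miR395a, also miR395d and miR395e: cUGAAGUGuuugggggaacuc
miR395b, also miR395c and miR395f: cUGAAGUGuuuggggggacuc
miR399b, also miR399c-3p: uGCCAAAGgagaguugcccug
miR827: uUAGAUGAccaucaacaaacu
Both miR395 sequences share 1 seed, and they differ by the single substitution A17G, counted from the 5′ end and written from miR395a to miR395b. The loci were placed on the RefSeq annotation of TAIR10.1. *MIR395a*, *MIR395b* and *MIR395c* form a cluster on chr1:9363196-9367179, and *MIR395d*, *MIR395e* and *MIR395f* form another on chr1:26269979-26273969. Each cluster holds both sequences. *MIR399b* is at chr1:23345377-23345511 on the minus strand, *MIR399c* at chr5:24962485-24962598 on the plus strand, and *MIR827* at chr3:22122760-22122936 on the minus strand. The miR395a sequence matches the genome at 3 places, miR395b at 3, miR399b at 2 and miR827 at 1, so only miR827 has a level that belongs to 1 locus.

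No family of the 3 was missing from the table, but not every annotated member was in it. All 6 *MIR395* genes had a row. Of 6 *MIR399* genes only *MIR399b* and *MIR399c* did, and the star strand miR399c-5p had none. The mature sequences of the remaining 4 *MIR399* genes are shown because they pair otherwise with *PHO2*.
MIR399a, not listed: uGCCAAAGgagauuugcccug
MIR399d, not listed: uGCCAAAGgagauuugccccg
MIR399e, not listed: uGCCAAAGgagauuugccucg
MIR399f, not listed: uGCCAAAGgagauuugcccgg
All 4 differ from miR399b by G13U. *MIR399d* has U20C besides, *MIR399e* has C19U and U20C, and *MIR399f* has U20G. Their levels were not analysed here.

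Values are the deposited RPM, which the authors scaled to the mapped 20–24 nt reads of each library. The 20–24 nt total was inferred as 13426200 to 20445100 reads per library (median 15958500). By the methods, the authors listed a row once a time point existed at which each of its 3 replicates held 5 reads or more. On the recovered reads 202 of the 207 rows met this, so the rule could be rebuilt closely but not for every row. On reads recovered per row from these totals, both miR399 rows met this at every time point. Each row of the miR395a sequence met it from W0 h to W12 h. Each row of the miR395b sequence met it at W0 h alone, and miR827 at W24 h alone. Summed over its rows, the miR395b sequence had 5.9, 7.9 and 11.9 reads at W12 h in replicates 1, 2 and 3. At W24 h it had 4.8, 2.0 and 8.0. The methods do not say whether the rule was applied before or after reads were divided among rows. Listing is meant below per row, on divided reads. A row that entered only through W0 h held under 5 reads in at least 1 replicate at every other time. This favours lower values there, and entry through W24 h alone favours higher values at W24 h. Neither forces such values in every replicate. Changes of the miR395b sequence and of miR827 are thus given as description. Their limma calls enter the row counts below but are no test of a change. Changes were tested with limma on log2(RPM + 0.1) over all 18 libraries with time point and replicate as terms, with Benjamini-Hochberg adjustment over the 207 rows. Nothing in these tables measures mRNA, so the tissue could not be checked by marker genes. Fewer cells of a type and less of a miRNA per cell cannot be told apart in such bulk tissue.

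The sulfate family miR395 fell over the light course, and it did so late. miR395a, which equals miR395d and miR395e in all 18 libraries, is described first. In replicates 1, 2 and 3 it exceeded 19, 31 and 19 of the 207 miRNA rows at W24 h, against 66, 70 and 40 at W0 h. In replicate 1 it had 1.72, 0.72, 1.09, 1.10, 0.48 and 0.27 RPM at W0, W1, W3, W6, W12 and W24 h. In replicate 2 it had 1.62, 1.12, 0.80, 1.00, 0.52 and 0.45 RPM at the same times. In replicate 3 it had 0.75, 0.86, 0.64, 1.04, 0.43 and 0.32 RPM. Every library at W12 h and W24 h lay below every library at W0 h, whereas the values from W1 h to W6 h overlapped with those of W0 h. The mean was 0.347 ± 0.093 RPM at W24 h and 1.36 ± 0.53 RPM at W0 h (SD, n = 3 each). miR395a changed by −1.27 ± 0.30 (log2, SE) at W12 h, with an adjusted p of 0.00876 (limma). At W24 h the change was −1.65 ± 0.30, with an adjusted p of 0.00031, and it was lower in 3 of 3 replicates. Few reads underlie this. Summed over its rows, the sequence had 10.9, 22.0 and 17.1 recovered reads at W24 h in replicates 1, 2 and 3. At W0 h it had 77.1, 75.2 and 38.7. Of the 207 rows, 5 had a lower estimate at W24 h. The W12 h call was lost without replicate 1 (limma adjusted p = 0.211) and without replicate 2 (0.276), and the W24 h call was kept without any 1 replicate, the highest adjusted p being 0.033.

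Ordered by level within replicates, the time points of miR395a ran W24 h, W12 h, W3 h, W1 h, W6 h and W0 h, from low to high. The step between W24 h and W12 h was 0.39 ± 0.24 (log2, SD over replicates) and the step between W12 h and W3 h was 0.69 ± 0.31, both of the same sign in 3 of 3 replicates. A step was taken to exceed its spread when its mean was above its SD and all 3 replicates had its sign. The neighbours from W3 h to W0 h did not differ beyond their spread.

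The miR395b sequence was lower in level throughout. miR395b, equal to miR395c, had 0.36, 0.21, 0.16, 0.29, 0.14 and 0.12 RPM in replicate 1 from W0 h to W24 h. It had 0.39, 0.29, 0.32, 0.28, 0.18 and 0.04 RPM in replicate 2, and 0.39, 0.47, 0.34, 0.26, 0.24 and 0.15 RPM in replicate 3. Values at W3 h, W6 h, W12 h and W24 h all lay below the 3 values of W0 h. miR395f differed from miR395b in 1 of the 18 libraries. Summed over its 3 rows, the sequence had 2.0 to 26.4 recovered reads per library, with the lowest in replicate 2 at W24 h. The estimate for miR395b was −0.76 ± 0.31 (log2, SE) at W12 h and −1.28 ± 0.31 at W24 h, and −1.02 at W24 h without replicate 2. As the row was listed through W0 h alone, no test is given.

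**Figure D1:**
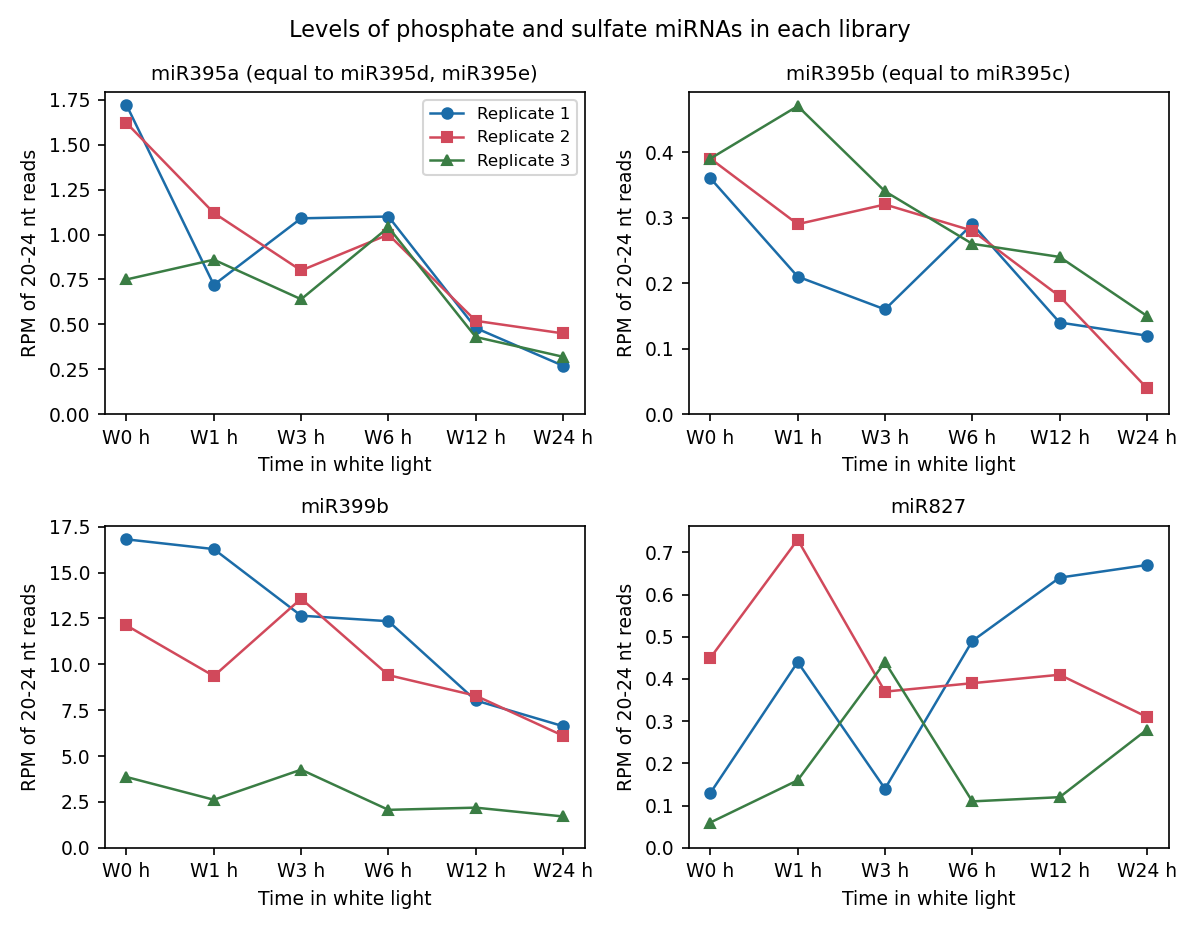
RPM of 20–24 nt reads (y axis, linear from 0) against time in white light (x axis, W0 h to W24 h) for miR395a, miR395b, miR399b and miR827, with 1 line and marker per replicate. miR395a lies at 0.27 to 0.45 RPM at W24 h and at 0.75 to 1.72 RPM at W0 h, miR399b of replicate 3 stays at or below 4.26 RPM, and the miR827 lines cross.

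miR399, the long-distance signal of phosphate shortage, also fell. Summed over its rows it was above miR827 in 18 of 18 libraries and above miR395 in 17, the exception being replicate 3 at W6 h with 3.13 RPM of miR399 and 3.90 RPM of miR395. At W24 h miR399b exceeded 58.9%, 57.0% and 32.4% of the miRNA rows in replicates 1, 2 and 3, against 66.7%, 65.2% and 42.0% at W0 h. In replicate 1 miR399b had 16.81, 16.28, 12.65, 12.35, 8.03 and 6.63 RPM from W0 h to W24 h. In replicate 2 it had 12.12, 9.36, 13.58, 9.41, 8.29 and 6.11 RPM. In replicate 3 it had 3.86, 2.62, 4.26, 2.07, 2.19 and 1.71 RPM. W24 h was the lowest time point in each replicate, but the groups overlapped across replicates, with replicate 3 below the others at every time. Relative to W0 h of the same replicate, the level at W24 h was 0.394, 0.504 and 0.443 in replicates 1, 2 and 3. miR399b changed by −0.80 ± 0.26 at W12 h (limma adjusted p = 0.0432) and by −1.15 ± 0.26 at W24 h (limma adjusted p = 0.00204), lower in 3 of 3 replicates both times. At W3 h it was 1.12 and 1.10 times its W0 h level in replicates 2 and 3, and the estimate was −0.04 ± 0.26.

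miR399c-3p, the row of the same sequence, had 17.01, 15.97, 12.38, 12.59, 7.67 and 6.85 RPM in replicate 1 from W0 h to W24 h. It had 11.87, 9.41, 13.02, 9.73, 8.63 and 5.80 RPM in replicate 2 and 1.83, 1.87, 2.40, 1.06, 1.15 and 0.93 RPM in replicate 3. Its estimate was −0.74 ± 0.27 at W12 h (limma adjusted p = 0.0579) and −1.08 ± 0.27 at W24 h (limma adjusted p = 0.00357). In the order of levels, the step between W24 h and W12 h exceeded its spread, at 0.35 ± 0.08 for miR399b and 0.34 ± 0.21 for miR399c-3p (log2, SD over replicates). The step of miR399b between W6 h and W1 h, 0.24 ± 0.22, had its sign in 2 of 3 replicates. The calls at W24 h depended on which replicate was left out. For miR399b the limma adjusted p at W24 h was 0.0717 without replicate 1, 0.0527 without replicate 2 and 0.00157 without replicate 3. For miR399c-3p it was 0.122 without replicate 1, 0.072 without replicate 2 and 0.00157 without replicate 3.

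The miR399 level differed more between replicate 3 and the other replicates than between W24 h and W0 h. Summed over both rows, miR399 in replicate 3 was 0.179 times that in replicate 1 and 0.216 times that in replicate 2, as geometric means over the 6 time points. The corresponding ratio to replicate 1 was 0.953 for summed miR395 and 0.458 for miR827, beside a median of 1.19 over the miRNA rows above 0 throughout. miR399b and miR399c-3p share a sequence, and their ratio was 0.968 to 1.05 in replicate 1 and 0.961 to 1.05 in replicate 2, but 1.40 to 2.11 in replicate 3. The kit and the replicate cannot be told apart. Within the TruSeq libraries alone, without replicate 3, miR399b changed by −1.15 and miR395a by −1.97 at W24 h.

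**Figure D2:**
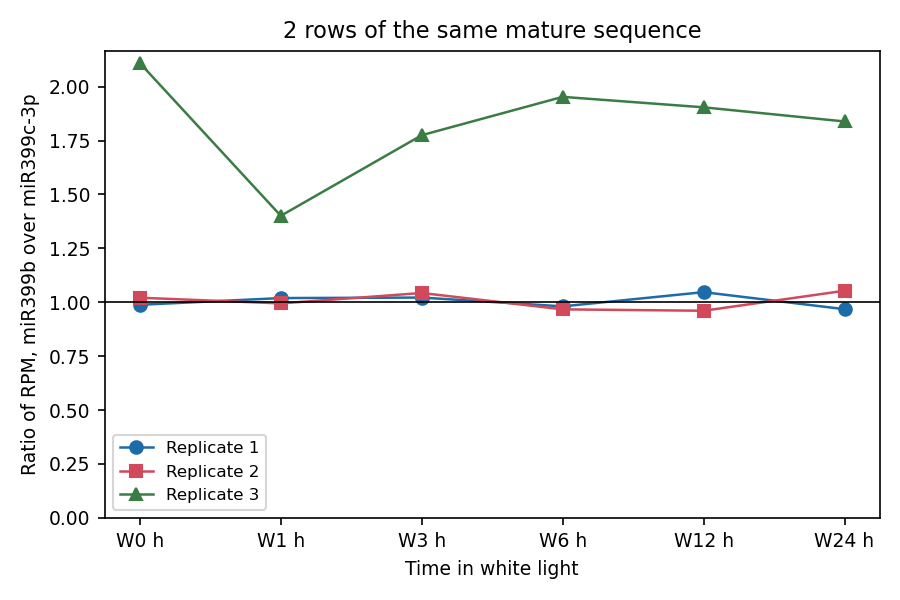
Ratio of RPM of miR399b over miR399c-3p (y axis, linear from 0) at each time in white light (x axis), with 1 line per replicate and a black line at 1. The rows stand for 1 sequence, and replicates 1 and 2 lie at 0.961 to 1.05 whereas replicate 3 lies at 1.40 to 2.11.

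miR827 was low in every library, and its estimates were above 0 at every time. Its values corresponded to whole reads within 0.08 of a read. There were 2, 7, 2, 8, 9 and 9 reads in replicate 1 from W0 h to W24 h. Replicate 2 had 7, 11, 6, 6, 6 and 5 reads, and replicate 3 had 1, 3, 9, 2, 2 and 5 reads. In replicates 1 and 3 every light library held at least as many reads as W0 h, while in replicate 2 only W1 h exceeded it. In RPM, W24 h was at 0.67, 0.31 and 0.28 in replicates 1, 2 and 3, against 0.13, 0.45 and 0.06 at W0 h. The exact Poisson 95% interval, which covers counting error only, was 0.307 to 1.27 RPM at W24 h and 0.0162 to 0.484 RPM at W0 h in replicate 1. In replicate 3 it was 0.0911 to 0.655 RPM at W24 h and 0.00147 to 0.324 RPM at W0 h, so these intervals overlapped. The limma estimate was 0.84 ± 0.45 at W1 h, 0.53 ± 0.45 at W3 h and W6 h, 0.68 ± 0.45 at W12 h and 0.86 ± 0.45 at W24 h. At W24 h 2 of 3 replicates were higher. The row was listed through W24 h alone, so no test is given. No neighbours in the order of its time points differed beyond their spread. Recovered reads ranged over 1 to 11 per library.

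Counted over rows, the change came with W12 h and W24 h. At W1 h, W3 h and W6 h limma called 0 of 9 rows. At an unadjusted p under 0.05 it gave 0, 0 and 1 of the 9, and edgeR and DESeq2 on recovered reads called 0 as well. Among all rows 0% were called lower and 0.483% higher at each of these times. At W12 h, 4 of 9 rows were lower (miR395a, miR395d, miR395e and miR399b), where 12.6% of all rows were lower and 1.45% higher. At W24 h, 8 of 9 rows were lower, all but miR827, where 29.0% of all rows were lower and 6.28% higher. Of these 8, miR395b, miR395c and miR395f were listed through W0 h alone, a choice that favours lower values later, so their calls are no test. Among the 186 rows that met the read rule at 2 or more time points, 5 of 5 member rows were lower at W24 h, where 29.6% of the rows were. These 5 rows stand for 2 sequences. With rows of 1 sequence summed, 1 of 4 sequences was lower at W12 h (background 6.45%) and 3 of 4 at W24 h (background 23.2%). The miR395b sequence is among these 3, and its call is no test either. Without replicate 2 the W24 h count was 3 of 9 (background 2.90%), and without replicate 1 or replicate 2 the W12 h count was 0 (background 0% in both). For the mean of the 5 light time points against W0 h, 3 of 9 rows were lower, the equal rows miR395a, miR395d and miR395e at −0.85 ± 0.23 (limma adjusted p = 0.03). The background there was 5.31% lower and 0.966% higher, and without replicate 1 or replicate 2 both the count and the background were 0.

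The median miRNA row was also lower at W12 h and W24 h, which bears on these sizes. The cause of this shift was not tested. The median log2 change over 207 rows was −0.34 at W12 h and −0.40 at W24 h. The median was −1.01 and −1.47 over the 6 miR395 rows, −0.77 and −1.11 over the 2 miR399 rows, and 0.68 and 0.86 for miR827. When libraries were rescaled so that the median ratio over miRNAs became 0 on the log2 scale, the calls over all rows at W24 h were 26 higher and 30 lower, against 13 higher and 60 lower as deposited. At W12 h they were 10 higher and 5 lower, against 3 and 26. Under this rescaling the same 8 miR395 and miR399 rows were lower at W24 h, where 14.5% of all rows were. miR395a changed by −1.21 and miR399b by −0.70. Of the 8, miR395b, miR395c and miR395f were listed through W0 h alone, which favours lower values later, so their calls are no test. The estimate of miR827 was 1.30. None of the 9 rows passed at W12 h, where 2.42% of all rows were lower.

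**Figure D3:**
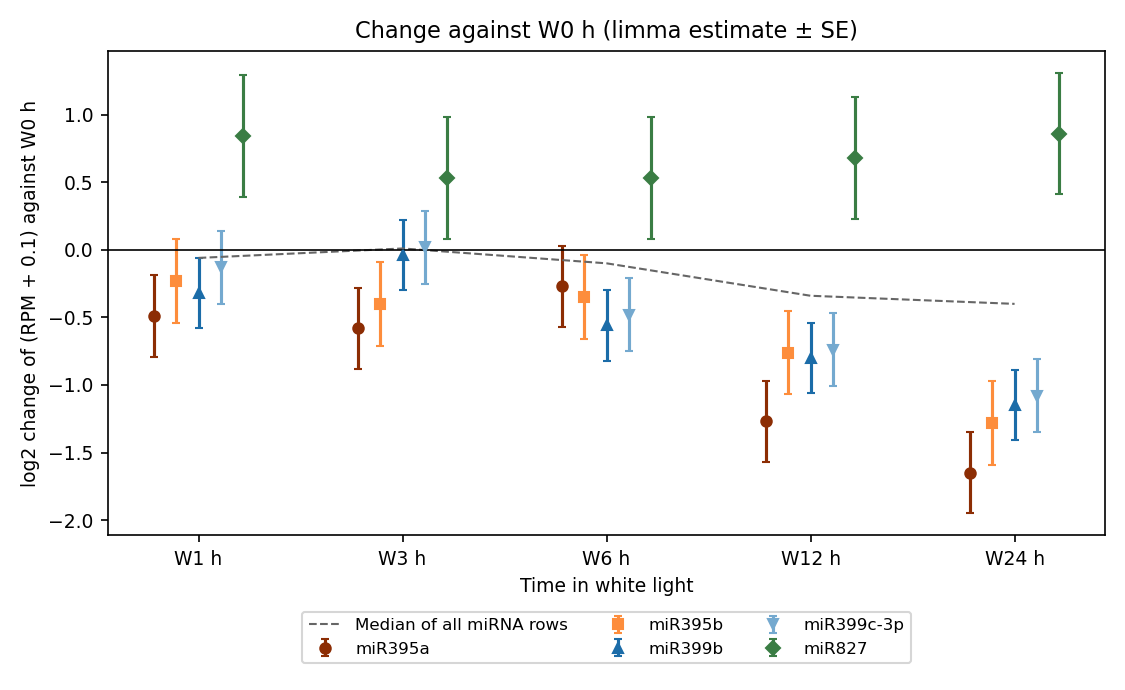
Change of log2(RPM + 0.1) against W0 h (y axis) at 5 times in white light (x axis), as limma estimates with bars of 1 SE, for miR395a, miR395b, miR399b, miR399c-3p and miR827. The dashed line is the median of the 207 miRNA rows, −0.40 at W24 h. At W24 h the miR395 and miR399 points lie at −1.65 to −1.08, below this line, and miR827 lies at 0.86.

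Whether the families moved alike was measured by the difference of their summed levels within a library, light minus dark. miR395 minus miR399, the sulfate family against the phosphate family, shifted by −0.61, −0.68 and 0.20 on the log2 scale in replicates 1, 2 and 3, a mean of −0.36. An exact two-sided permutation of the dark label within replicates gave p = 0.245, and 0.245 adjusted over the 3 differences. There are 216 arrangements, and the smallest p they allow is 0.00463. With the miR395a sequence alone, an alternative added after the data were seen, the mean was −0.38 (adjusted exact permutation p = 0.269). For the summed miR395 family without replicate 3, the replicate of the other kit, the mean was −0.65 (adjusted exact permutation p = 0.0417). The value thus depended on that replicate. The summed family includes miR395b, miR395c and miR395f, whose listing through W0 h alone favours this direction. Neither p of the sum is therefore a fair test, and 0.0417 is not read as a call. The miR395a sequence alone was not run without replicate 3. miR827 minus miR399 shifted by 1.89, 0.34 and 1.47, a mean of 1.23, and miR827 minus miR395 by 2.50, 1.02 and 1.26, a mean of 1.60. Since miR827 was listed through W24 h alone and 3 miR395 rows through W0 h alone, listing favours this direction, and both shifts are given as description only.

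**Figure D4:**
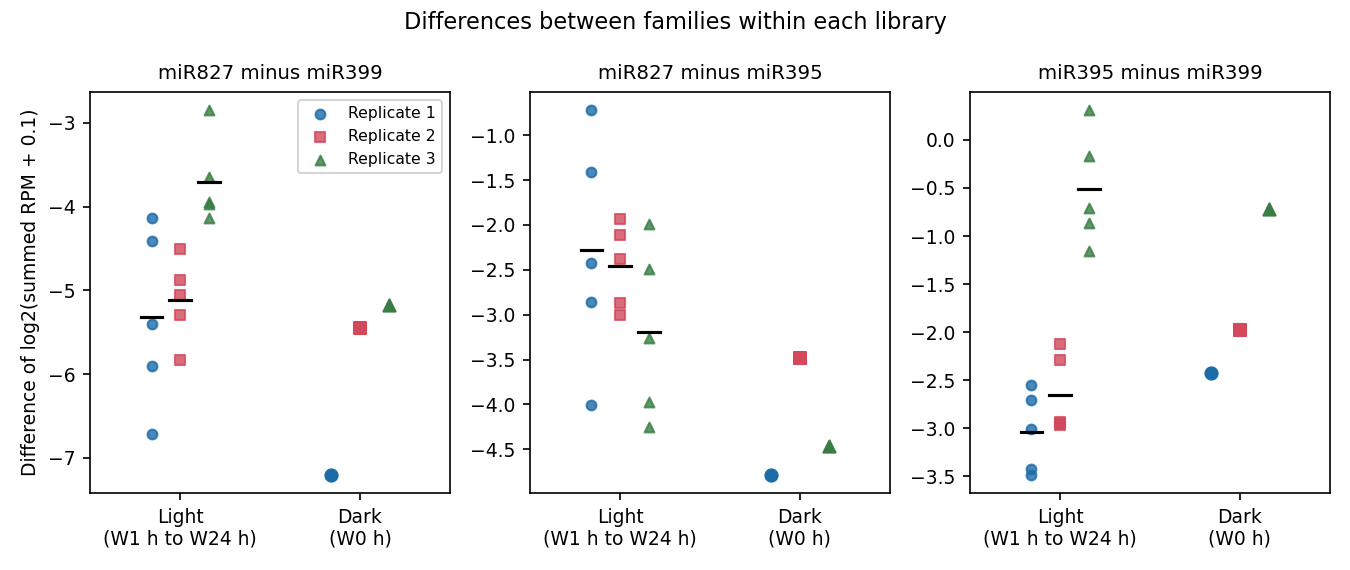
Difference of log2(summed RPM + 0.1) between 2 families within each library (y axis), with light libraries (W1 h to W24 h) left of the dark library (W0 h), 1 marker per library, coloured by replicate, and black bars for the mean of a replicate's 5 light libraries. For miR827 minus miR399 and miR827 minus miR395 every bar lies above the dark marker of its replicate, by 0.34 to 1.89 and by 1.02 to 2.50. For miR395 minus miR399 the bars lie below it in replicates 1 and 2 and above it in replicate 3.

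Other miRNA families of phosphate starvation were looked for. miR778, which represses a histone methyltransferase gene, had no row. miR2111, whose mature strand moves between shoot and root in legumes, was present only as miR2111b-3p. miR2111b-3p had 0.15, 0.92 and 1.63 RPM at W24 h in replicates 1, 2 and 3, against 0.47, 1.29 and 3.19 RPM at W0 h. It was lower in 3 of 3 replicates, but the estimate of −0.85 ± 0.43 did not pass (limma adjusted p = 0.123). Unlike miR399, it was 3.34 times as abundant in replicate 3 as in replicate 1.

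Likeness of pattern was measured by Pearson's r of log2(RPM + 0.1) over the 18 libraries after each replicate's mean was removed. These values describe points that share libraries and depth. miR395a was most like miR396a-3p (r = 0.898), miR390b-3p (0.880) and miR822-5p (0.860). The miR395b sequence was most like miR162b-5p (0.851), miR822-5p (0.847) and miR166a-5p (0.838). miR399b was most like miR5646 (0.896), miR5024-3p (0.875) and miR408-5p (0.857), the last the strand opposite to a copper-responsive miRNA. For miR827 the closest rows were weaker, with miR833b at 0.623, miR4228-3p at 0.617 and miR156b-3p at 0.592. Among the members themselves, r was 0.971 between miR399b and miR399c-3p, 0.669 between miR395a and miR399b, and −0.436 to −0.122 between miR827 and the others.

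Sites of the 3 families on their known targets were read from TAIR10.1 transcripts, and each site is written 5′ to 3′ with the bases that do not form a Watson-Crick pair in capitals. They are shown because they differ in how well the listed sequences pair.
NLA with miR827, 5′ UTR, chr1:635401-635421: Tgtttgttgatggtcatctaa
PHO2 with miR399b, 5′ UTR, chr2:14282106-14282126: TagggcaaAtctTctttggca
PHO2 with miR399b, 5′ UTR, chr2:14281827-14281847: TCgAgcaaAtctcctttggca
APS4 with miR395a, coding exon 1, chr5:17591121-17591141: gagttccTccaaacacttcaT
SULTR2;1 with miR395a, coding exon 1, chr5:3193268-3193288: AagttcTcccaaacacttcaA
APS1 with miR395a, coding exon 1, chr3:8113164-8113184: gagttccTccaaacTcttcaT
A penalty was summed over each site, with 1 for a mismatch and 0.5 for a G:U pair, doubled at miRNA positions 2 to 13. It was 1 for miR827 on *NLA* and 1.5, 2.5 and 3.5 for miR395a on *APS4*, *SULTR2;1* and *APS1*. For the miR395b sequence it was 2, 3 and 4 on the same sites. *PHO2* has 5 sites in exon 2, all in the 5′ UTR between 14281770 and 14282126 on chromosome 2, with penalties of 3.5 to 4.5 for miR399b. Position 13 of miR399b paired at 0 of these 5 sites. In the 4 unlisted *MIR399* sequences, which carry G13U, it paired at 5 of 5, and their penalties were 1.5 to 2.5 for *MIR399a* and *MIR399d*, 2 to 3 for *MIR399e* and 1 to 2.5 for *MIR399f*. The *MIR399* member best matched to *PHO2* at these sites therefore was not among the rows measured.

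The degradome records held none of the 5 targets. Of 416 records in light and 280 in dark, on 486 genes in all, 0 fell on *PHO2*, *NLA*, *APS1*, *APS4* or *SULTR2;1*. The count was also 0 for 14 other phosphate genes, among them *PHR1*, the *SPX* phosphate sensors, the exporter *PHO1* and the decoy RNA *IPS1*. It was 0 for 11 other sulfate genes, among them *SLIM1*, the sulfate transporters *SULTR1;1* and *SULTR1;2* and the reductases *APR1* to *APR3*. These counts were the same without a minimum of reads at the site. The share of all genes with a record was not computed, so these zeros are no result about either pathway. None of the 485 query sequences was named as a miRNA, and the longest run that a member shared with any query was 9 nt for both miR395 sequences, 7 nt for miR399b and 8 nt for miR827. Among the 91 miRNA families of the table, 21 shared at least 16 nt with a query, and the 3 families were not among them. The absence of records therefore says nothing on cleavage by miR395, miR399 or miR827, since no record analysed here was made with their sequences. The paper reports cleavage events by miRNAs from these degradome libraries in a separate list, which was not analysed here.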

How the data were processed

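sRNA and degradome libraries were grouped by the time point and replicate in the labels. The deposited RPM values were made by the authors, who mapped trimmed reads to TAIR10 with Bowtie 1.0.0, counted reads equal to a mature miRNA, divided them among family members and normalized them to mapped 20–24 nt reads. The degradome values are other data: the authors deposited CleaveLand4 4.3 records as text, with the reads, category and p-value of each site. The 20–24 nt totals were inferred as those on which phasiRNA values give whole reads (941 of 949, 99.2%, within a rounding of 0.005 RPM), so they are no independent check. The table has 0 unused sample columns.

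Changes were tested with limma 3.58.1 (lmFit, eBayes with trend) in R 4.3.3 on log2(RPM + 0.1), with the replicate as a block and an adjusted p under 0.05 as threshold. The pairing was checked by correlating libraries of a replicate after removing each time point's mean (median r 0.942, 0.944 and 0.979 in replicates 1, 2 and 3, over 15 pairs each). The kit of replicate 3 by itself could give such values. edgeR 4.0.16, with the inferred totals as library sizes, and DESeq2 1.42.0 were run on recovered reads. The tests were tried on simulated data. Figures and permutations used Python 3.11.15, numpy 2.4.6 and matplotlib 3.10.9.

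The members, gene lists and rules for naming genes (all members, 5 targets, miR2111 and miR778, pathway genes, and the 3 rows most alike) were chosen with earlier results of these data known. Alternatives were pseudocounts of 1 and 0.01 RPM, no replicate block, rescaling, a mean of at least 1 RPM, eBayes without trend, each replicate left out, a one-sample test within replicates, rows of 1 sequence summed, and, added after the data were seen, edgeR, DESeq2, rescaling to W0 h, the miR395a sequence alone and rows that met the read rule at 2 or more time points, besides other thresholds for degradome records.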

Additional observations from a re-analysis of the deposited data

How the results depend on the processing

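The lower miR395a and miR399b levels at W24 h kept their direction under every alternative run. The row counts below take in miR395b, miR395c, miR395f and miR827, except where only the miR399 rows are left. For these rows, listed through 1 time point alone, listing favours the direction found, so their calls are no test. For the count of member rows past the threshold (8 at W24 h, 4 at W12 h and 3 for the mean of the light time points), leaving out 1 replicate gave 3 to 8, 0 to 5 and 0 to 3, where 2.90% to 44.4%, 0% to 33.3% and 0% to 22.7% of all rows were lower. Without the replicate block the counts were 6, 0 and 0 (3.38%, 0% and 0% of all rows lower), and the adjusted p for miR399b at W24 h was 0.996. The one-sample test within replicates gave 0 at all 3, and no row of the table was lower. A mean of at least 1 RPM, which leaves only the 2 miR399 rows, gave 2, 1 and 0 (29.9%, 12.4% and 3.95%). Rows of 1 sequence summed gave 3, 1 and 1 of 4 (23.2%, 6.45% and 4.52%). Rescaling to a median miRNA ratio of 0 gave 9, 0 and 0 (14.5%, 2.42% and 2.42%). The ninth was miR827, higher, a direction that its listing through W24 h alone favours, so its call is no test. Chosen after the data were seen, rescaling to W0 h of the same replicate gave 8, 3 and 0 (15.9%, 5.31% and 2.42%), edgeR gave 8, 4 and 3 (28.5%, 13.5% and 6.28%), and DESeq2 gave 4, 0 and 0 (9.66%, 5.31% and 2.90%). The cause was not tested.

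Leaving out 1 replicate gave miR827 minus miR399 0.90 to 1.68, miR827 minus miR395 1.14 to 1.88 and miR395 minus miR399 −0.65 to −0.21 (adjusted exact permutation p 0.0417 to 0.639 for the last). With 36 arrangements the smallest p is then 0.0278. Listing favours the direction of each of these differences, so they are given as description.

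Some estimates near 0 changed sign. miR399b at W3 h was 0.02 and 0.01 under the 2 rescalings, 0.05 with DESeq2 and −0.13 to 0.15 with 1 replicate left out. miR399c-3p was 0.02 at W1 h with rescaling and 0.04 with DESeq2. At W3 h it was −0.01 with a pseudocount of 1 RPM, −0.00 with edgeR and −0.16 to 0.25 with 1 replicate left out. miR827 at W3 h was −0.08 to 0.91 with 1 replicate left out. The degradome count was 0 under every threshold. The stricter settings could only repeat this 0, and no record was made with a member sequence, so it checks nothing on their cleavage. Read numbers were low for miR827 (1 to 11 per library) and the miR395b sequence (2.0 to 26.4). They were also low for the miR395a sequence at W24 h (10.9 to 22.0). Whether depth or disagreement between replicates limits the calls of these sequences was not tested.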
